A study of Mus musculus with 24 samples.

Results

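The 10 genes described here encode the muscle acetylcholine receptor and the proteins that build and clear the neuromuscular synapse. They are the receptor subunit genes Chrna1, Chrnb1, Chrnd, Chrne and Chrng, the signaling genes Musk, Lrp4 and Dok7, the receptor anchor Rapsn and the esterase Ache. They were chosen by symbol, as the genes with a probe set annotated to that symbol alone, with earlier results of these arrays known, and each had 1 such probe set among the 20261 genes measured. Both within-mouse contrasts count as used in that choice, so the values of the 10 genes are given as a description without p-values.

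Tibialis anterior muscle of 12 male C57BL/6J mice, 30 weeks old, was transfected by electroporation. In 6 mice 1 leg received FOXO1dn, and in 6 other mice 1 leg received FOXO3dn, each a forkhead transcription factor truncated so that it keeps DNA binding and loses transactivation. The contralateral leg of every mouse received a control plasmid, which the methods describe as LacZ-encoding and the deposited design as empty. Muscle was taken 1 week after electroporation, after a 4 h fast and 2 h after oral glucose, and whole-muscle RNA from each leg was hybridized to 1 Affymetrix Mouse Gene 2.1 ST array. The 24 arrays therefore fall into FOXO1dn-labelled legs, control-labelled legs of the FOXO1 cohort, FOXO3dn-labelled legs and control-labelled legs of the FOXO3 cohort, with 6 arrays each. Electroporation reaches a share of the fibres in a muscle, so each array mixes transfected with untransfected fibres and with the other cells of the tissue. In such bulk samples fewer cells of a type and less RNA per cell cannot be told apart.

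Array medians ranged over 3.31 to 3.34 log2 units in FOXO1dn-labelled legs and 3.29 to 3.31 in their control-labelled legs, against 3.25 to 3.29 and 3.23 to 3.28 in the FOXO3dn-labelled legs and theirs. Myofibre genes (Acta1, Ckm, Mb, Myh1, Myh4, Tnnt3, Actn3 and Pvalb) averaged 12.2 to 12.6 log2 units on every array, as the tissue label calls for. The 6 measured Schwann cell genes averaged 3.08 to 3.50, near the array medians. By the array labels most of the genes that passed the thresholds below were lower in FOXO1dn-labelled legs. In the FOXO3 cohort the 17 genes that passed both thresholds were all lower in FOXO3dn-labelled legs. For both constructs this direction is opposite to the one the study states for most such genes. The constructs were made from redesigned nucleotide sequences, and which leg carried one was not checked on the arrays. Legs are named by their labels throughout. The words "fell" or "rose", and "lower" or "higher" in a mouse, say how a dn-labelled leg stood to the control-labelled leg. Likewise "with FOXO1dn" and "with FOXO3dn" name the contrast of the legs so labelled with their control-labelled legs, not an effect of the construct.

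In the adult muscle fibre, receptor genes are transcribed mainly by the nuclei under the nerve ending. Fetal and denervated fibres transcribe them along their whole length, and the fetal receptor carries the gamma subunit in place of the adult epsilon subunit. The nerve releases agrin, which binds LRP4 and activates the kinase MuSK with the help of the adaptor DOK7, and rapsyn then clusters the receptor. Electrical activity represses the subunit genes outside the synapse through the myogenic basic helix-loop-helix factors, which bind E-boxes.

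FOXO1dn-labelled legs had lower levels of several receptor subunit genes. By the deposited intensities Chrng, which encodes the gamma subunit of the fetal receptor, Chrnd (delta subunit) and Chrna1 (the acetylcholine-binding alpha subunit), both shared with the adult receptor, were 26.1-fold, 18.8-fold and 4.68-fold lower than in control-labelled legs. The folds of Chrng and Chrnd rest on dim values in FOXO1dn-labelled legs, which carry no detection call. Musk was 1.83-fold and Chrnb1 (beta subunit) 1.49-fold lower. Chrne, which encodes the adult epsilon subunit, and Rapsn, Dok7, Lrp4 and Ache differed by no more than 0.35 log2 units. In the FOXO3 cohort the largest difference was that of Chrnd, which was 2.32-fold lower in FOXO3dn-labelled legs, and Chrng differed by 0.45 log2 units. Both genes were already low in control-labelled legs of that cohort, which limits how far they could fall.

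Chrng had log2 intensities of 3.59, 3.84 and 4.58 (lowest, median and highest of 6) in FOXO1dn-labelled legs, against 7.91, 8.74 and 9.29 in control-labelled legs. The groups lay 3.33 log2 units apart at their closest arrays. Its mean within-mouse difference was -4.71 (n = 6 mice), and the differences ran between -5.38 in mouse 2 and -4.21 in mouse 1. The SE was 0.30, and this and every other SE given here comes from the limma fit over all arrays. The 6 differences themselves had an SD of 0.42. Among 20261 genes Chrng had the 2nd lowest difference. In FOXO1dn-labelled legs Chrng thus stood close to the array medians, and it is not known whether such levels are above background.

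Chrnd, the gene next to Chrng on chromosome 1, had log2 intensities of 3.64, 4.60 and 5.37 in FOXO1dn-labelled legs and 7.81, 8.83 and 9.35 in control-labelled legs. Its difference was -4.23 (SE 0.37), the 3rd lowest of all genes. Chrna1, on chromosome 2, had 6.52, 6.89 and 7.28 in FOXO1dn-labelled legs and 8.56, 9.12 and 9.73 in control-labelled legs, a difference of -2.23 (SE 0.25). The 3 genes were lower in the FOXO1dn-labelled leg of all 6 mice, and no array of one group reached the range of the other. In each mouse Chrna1 showed the smallest difference of the 3.

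Chrnb1 had 7.11, 7.32 and 7.51 in FOXO1dn-labelled legs and 7.46, 7.86 and 8.18 in control-labelled legs. It was lower in 6 of 6 mice by 0.13 to 1.02 log2 units (mean difference -0.58, SE 0.13), although the groups overlapped between the control-labelled leg of mouse 5 and the FOXO1dn-labelled leg of mouse 1. Chrne had 5.72, 5.91 and 6.34 in FOXO1dn-labelled legs and 4.99, 5.54 and 6.14 in control-labelled legs, a difference of 0.35 (SE 0.18). It was higher in 4 of 6 mice and the groups overlapped widely, so the adult subunit gene did not share the pattern of the other 4 subunit genes.

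**Figure D1:**
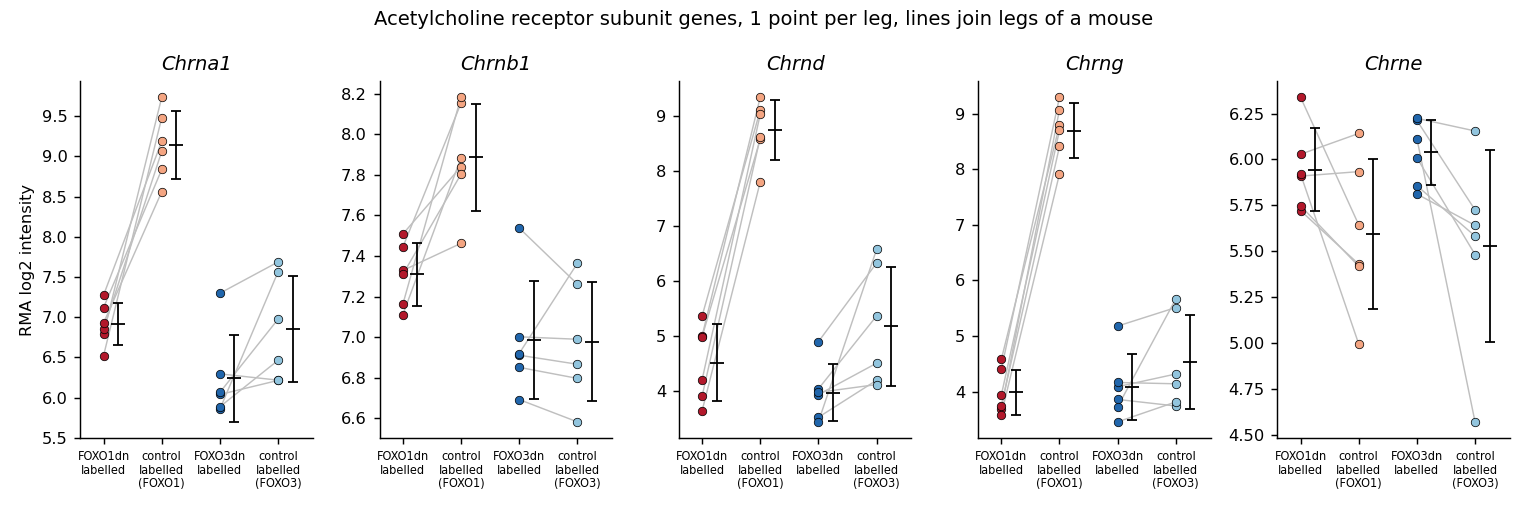
RMA log2 intensity (vertical axes, a separate range per gene) of the 5 receptor subunit genes in each leg, with FOXO1dn-labelled and FOXO3dn-labelled legs left of their control-labelled legs. Points are arrays, gray lines join the legs of a mouse and black bars are the mean and SD of 6 arrays. Chrng, Chrnd and Chrna1 in control-labelled legs of the FOXO1 cohort stand above every other array, and Chrne overlaps in both cohorts.

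The sequence just upstream of these genes is shown because the subunit genes that differed most are textbook targets of E-box binding factors, and the epsilon gene of factors that bind a CCGGAA element (the N-box). RefSeq promoter windows on GRCm38.p6 were matched by symbol for 7 of the 10 genes, and none is shown for Chrnd, Rapsn and Lrp4. The 250 bases before the annotated start are printed 5′ to 3′ in the direction of transcription. Capitals mark CAGCTG and CAGGTG E-boxes and the CCGGAA element, searched on both strands.
Chrng, chr1:87205561-87205810, plus strand: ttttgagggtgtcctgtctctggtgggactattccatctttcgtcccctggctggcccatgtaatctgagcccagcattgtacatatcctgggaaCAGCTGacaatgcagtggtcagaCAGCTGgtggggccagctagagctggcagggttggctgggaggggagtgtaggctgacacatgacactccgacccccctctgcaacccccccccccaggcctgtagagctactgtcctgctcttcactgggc
Chrna1, chr2:73580339-73580588, minus strand: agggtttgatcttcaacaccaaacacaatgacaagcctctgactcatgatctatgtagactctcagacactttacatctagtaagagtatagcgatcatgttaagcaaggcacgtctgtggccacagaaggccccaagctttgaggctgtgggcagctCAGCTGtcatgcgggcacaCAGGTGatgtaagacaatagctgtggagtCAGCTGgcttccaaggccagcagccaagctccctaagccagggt
Musk, chr4:58285712-58285961, plus strand: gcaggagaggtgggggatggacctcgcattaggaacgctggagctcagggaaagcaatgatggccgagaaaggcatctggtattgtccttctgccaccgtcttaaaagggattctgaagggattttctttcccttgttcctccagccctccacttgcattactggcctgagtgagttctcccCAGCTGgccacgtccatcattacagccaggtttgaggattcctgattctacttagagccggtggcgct
Chrne, chr11:70619195-70619444, minus strand: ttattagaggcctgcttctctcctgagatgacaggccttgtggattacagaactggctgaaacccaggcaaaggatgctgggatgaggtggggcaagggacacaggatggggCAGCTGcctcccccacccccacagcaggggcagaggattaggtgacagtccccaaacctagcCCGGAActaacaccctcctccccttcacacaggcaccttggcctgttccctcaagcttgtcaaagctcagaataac
Chrng held 2 copies of CAGCTG, at 155 and 132 bases before the start, and Chrna1 held 2 copies at 92 and 44 bases and 1 CAGGTG at 73 bases. Musk held 1 CAGCTG at 68 bases. Chrne held 1 CAGCTG at 138 bases and the only CCGGAA of the set, at 76 bases. The window of Chrnb1 held 1 CAGGTG at 29 bases, and the windows of Dok7 and Ache held none of the 3 motifs. CAGCTG was present in 13.0% of 32851 RefSeq windows of the same length, CAGGTG in 17.2% and CCGGAA in 12%. CAGCTG thus occurred upstream of both Chrng and Chrne, whose differences with FOXO1dn were -4.71 and 0.35, and a match in these letters is a description and not a site of binding.

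Of the 10 genes, Musk, Lrp4 and Dok7 carry the agrin signal, and Musk was the one of them whose legs did not overlap. Musk, the receptor tyrosine kinase of the agrin signal, had 6.29, 6.81 and 6.96 in FOXO1dn-labelled legs, against 7.42, 7.60 and 7.80 in control-labelled legs. It was lower in all 6 mice by 0.62 to 1.37 log2 units (mean difference -0.87, SE 0.10) and the groups stayed 0.46 apart. Lrp4, the agrin receptor, had 3.47, 3.69 and 4.05 in FOXO1dn-labelled legs and 3.66, 3.80 and 3.96 in control-labelled legs (difference -0.09, SE 0.09). Its values lay near the array medians in all groups. Dok7, the cytoplasmic activator of MuSK, had 5.21, 5.58 and 5.79 in FOXO1dn-labelled legs and 5.22, 5.59 and 5.88 in control-labelled legs (difference -0.03, SE 0.12). Agrin's receptor and MuSK's adaptor therefore overlapped fully between legs.

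Rapsn, which anchors the receptor, had 5.18, 5.43 and 5.76 in FOXO1dn-labelled legs and 5.46, 5.61 and 5.72 in control-labelled legs. Its difference was -0.19 (SE 0.14), with the lower value in the FOXO1dn-labelled leg of 5 of 6 mice. Ache, the enzyme that splits acetylcholine in the cleft, had 3.96, 4.17 and 4.80 in FOXO1dn-labelled legs and 3.89, 4.27 and 4.42 in control-labelled legs. Its difference was 0.06 (SE 0.13) and 3 of 6 mice lay on each side of 0.

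**Figure D2:**
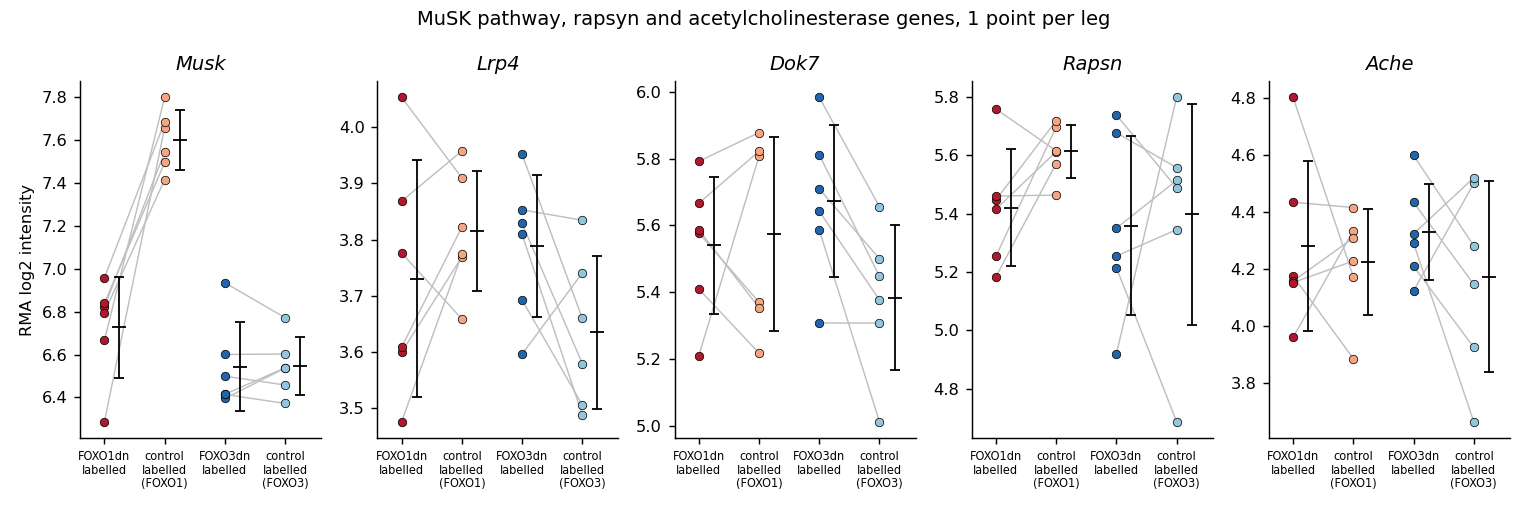
RMA log2 intensity of Musk, Lrp4, Dok7, Rapsn and Ache in each leg (vertical axes, a separate range per gene), drawn as in the plot of the subunit genes, with mean and SD of 6 arrays. Musk in control-labelled legs of the FOXO1 cohort lies at 7.42 to 7.80, above all other arrays, and the other 4 genes overlap between groups.

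Of the 10 genes, 5 had an adjusted p under 0.05 in the limma fit with the lower level in FOXO1dn-labelled legs and 0 with the higher, against 10.9% and 6.02% of all genes. The same 5 had an unadjusted p under 0.05, as did 26.8% of all genes. With the study's added threshold of a log2 difference over 1, Chrng, Chrnd and Chrna1 were called, against 1.99% of all genes called lower. In 4 of the 10 genes the legs did not overlap, with FOXO1dn-labelled legs lower, against 4.51% of all genes lower and 2.65% higher. Lower levels in 6 of 6 mice were seen in 5 of the 10, against 10% of all genes, and higher levels in 6 of 6 mice in 0, against 8.52%. The median difference of the 10 genes was -0.39, beside 0.01 over all genes. These counts come from the contrast by which the genes were chosen and describe them only.

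Chrng, Chrnd, Chrna1, Chrnb1 and Musk showed smaller differences in the FOXO3 cohort. For Chrng and Chrnd there was less room for a fall, as their control-labelled legs stood at 3.74 to 5.67 and 4.12 to 6.58. The array medians of those legs were 3.23 to 3.28, and it is not known whether the lowest of these levels are above background. Musk and Chrnb1 averaged 6.55 and 6.98 in the same legs. The source of the smaller differences was not tested. Chrnd had 3.44, 3.96 and 4.90 in FOXO3dn-labelled legs and 4.12, 4.94 and 6.58 in control-labelled legs. Its difference was -1.21 (SE 0.37) and it was lower in 6 of 6 mice, by 0.14 in mouse 5 and by 3.13 in mouse 2. Chrna1 had 5.86, 6.05 and 7.30 in FOXO3dn-labelled legs and 6.22, 6.72 and 7.69 in control-labelled legs (difference -0.61, SE 0.25, lower in 5 of 6 mice). Chrng had 3.46, 3.97 and 5.18 in FOXO3dn-labelled legs and 3.74, 4.23 and 5.67 in control-labelled legs (difference -0.45, SE 0.30, lower in 4 of 6 mice). Mouse 2 gave the largest difference in each of the 3 genes, -1.94 for Chrng and -1.71 for Chrna1. Without mouse 2 the mean differences were -0.83 for Chrnd, -0.39 for Chrna1 and -0.16 for Chrng.

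Chrne had 5.81, 6.06 and 6.22 in FOXO3dn-labelled legs, against 4.57, 5.61 and 6.16 in control-labelled legs. It was higher in the FOXO3dn-labelled leg of 6 of 6 mice, by 0.51 on average (SE 0.18), with 1.54 in mouse 2 and 0.07 to 0.53 in the other 5. Without mouse 2 the mean was 0.31. Dok7 was also higher in 6 of 6 mice (difference 0.29, SE 0.12), although in mouse 4 by less than 0.01, with 5.31, 5.68 and 5.98 in FOXO3dn-labelled legs and 5.01, 5.41 and 5.66 in control-labelled legs. Musk (-0.00, SE 0.10), Chrnb1 (0.01, SE 0.13), Rapsn (-0.04, SE 0.14), Lrp4 (0.15, SE 0.09) and Ache (0.16, SE 0.13) had both signs among the mice.

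None of the 10 genes passed an adjusted p of 0.05 in limma with FOXO3dn, where 0.706% of all genes did, and 4 had an unadjusted p under 0.05 (Chrnd and Chrna1 lower, Chrne and Dok7 higher), beside 8.27% of all genes lower and 6.51% higher. Chrnd was lower and Chrne and Dok7 were higher in 6 of 6 mice, which held for 4.98% and 3.31% of all genes. With the log2 difference over 1 added, 0 were called, against 0.0839% of all genes, and in 0 of the 10 did the legs not overlap, against 0.479% of all genes lower and 0.301% higher. Their median difference was 0.00, as over all genes. When genes with a mean log2 intensity under 4 were left out, which drops Lrp4, Chrnd was called with FOXO3dn.

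**Figure D3:**
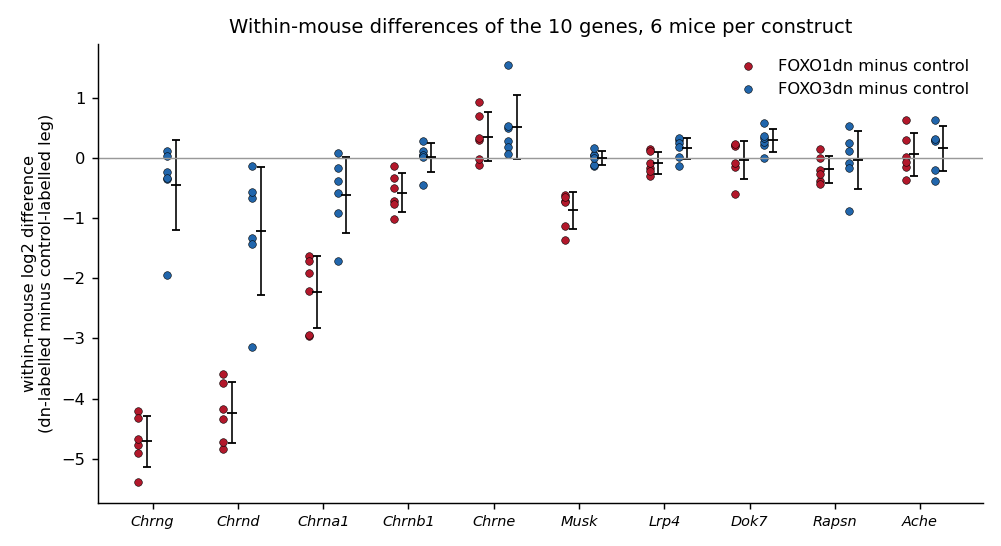
Within-mouse log2 difference, dn-labelled minus control-labelled leg (vertical axis), of the 10 genes in 6 FOXO1dn mice (red) and 6 FOXO3dn mice (blue). Points are mice and bars are the mean and SD. All red points of Chrng and Chrnd lie under -3.5, the blue points of Chrng lie between -1.94 and 0.12, and Chrne has the largest positive point, 1.54 in FOXO3dn mouse 2.

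Between the cohorts, the receptor subunit genes other than Chrne differed most in control-labelled legs. In the FOXO1 cohort, control-labelled legs had higher levels than those of the FOXO3 cohort by 4.16 log2 units for Chrng, 3.57 for Chrnd, 2.29 for Chrna1, 1.05 for Musk and 0.91 for Chrnb1. In these 5 genes the control-labelled legs of the cohorts did not overlap, which held for 8.76% of all genes with the FOXO1 cohort higher and for 1.36% with it lower. The other 5 genes differed by 0.05 (Ache) to 0.21 (Rapsn), beside an all-gene median of 0.10. Between FOXO1dn-labelled and FOXO3dn-labelled legs all 10 genes overlapped, while 7.98% of all genes lay apart with the FOXO1 cohort higher and 1.17% with it lower. There the differences, FOXO1 minus FOXO3 cohort, were 0.68 for Chrna1, 0.55 for Chrnd, 0.32 for Chrnb1, 0.18 for Musk and -0.09 for Chrng. The order of the Chrng group means was 3.99 in FOXO1dn-labelled legs, 4.08 in FOXO3dn-labelled legs, 4.53 in control-labelled legs of the FOXO3 cohort and 8.70 in those of the FOXO1 cohort, and the first 3 overlapped. By the labels the control-labelled legs of both cohorts carried a control plasmid, and the source of their difference was not tested. Between the dn-labelled legs, cohort and construct cannot be told apart.

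The difference between the within-mouse differences (FOXO1dn minus FOXO3dn) was -4.25 for Chrng (SE 0.43), -3.02 for Chrnd (SE 0.52), -1.61 for Chrna1 (SE 0.35) and -0.87 for Musk (SE 0.14). These 4 genes had an adjusted p under 0.05 for that difference, where 0.306% of all genes did. This describes them only, since both contrasts behind the difference count as used in their choice. Chrng and Chrnd were already low in control-labelled legs of the FOXO3 cohort, which limits how far they could fall there. Among the other genes of the synapse and its regulation, Myog (-2.41, adjusted p = 0.00668, limma), Kcnn3 (-1.81, adjusted p = 0.00442, limma) and Sik1 (-1.09, adjusted p = 0.0408, limma) passed this test. Sik1 no longer passed without mouse 2, 3, 4 or 6 of the FOXO1 cohort. The same held without mouse 1, 3, 4 or 5 of the FOXO3 cohort (adjusted p = 0.0644 to 0.145 over both cohorts, limma). Chrna1 was no longer among the genes that passed without the same mice. Neither passed without the mouse as a block, nor Sik1 with the mouse as a fixed effect (adjusted p = 0.053, limma), nor Chrna1 with a variance trend and robust fit.

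Around the 10 genes, 87 other genes of the synapse and of its regulation were measured, taken from lists chosen with earlier results known. P-values printed for genes of these lists, above and below, describe the genes only. In FOXO1dn-labelled legs 17 were lower (of all genes 10.9% were), 8 were higher (of all genes 6.02%) and 62 did not pass an adjusted p of 0.05. Their median difference was -0.01, beside 0.01 over all genes. Of these 25 genes, 9 no longer passed when 1 mouse was left out or the arrays were quantile normalized. In FOXO3dn-labelled legs 0 of the 87 passed in limma, with 15 at an unadjusted p under 0.05, beside 14.8% of all genes. When genes with a mean under 4 were left out, 1 passed, Id2.

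The myogenic factors and their regulators held the largest difference among these other lists. Myog, the basic helix-loop-helix factor myogenin that is induced by denervation, had 4.21, 4.68 and 5.79 in FOXO1dn-labelled legs, against 7.47, 8.17 and 8.91 in control-labelled legs. It fell in all 6 mice (difference -3.36, SE 0.30, adjusted p = 6.41e-08, limma) and no array of one group reached the other. In FOXO3dn-labelled legs it had 4.21, 4.86 and 5.80, against 5.30, 5.42 and 7.10 in control-labelled legs, lower in 6 of 6 mice without passing (difference -0.95, adjusted p = 0.126, limma). Of the 15 genes of this list, 6 fell with FOXO1dn and 1 rose, beside 10.9% and 6.02% of all genes.

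Sik1, a kinase that acts on class II histone deacetylases, fell by 1.54 (adjusted p = 1.56e-06, limma) in 6 of 6 mice. Id2, which sequesters E-box factors, fell by 1.86 (adjusted p = 0.000947, limma) in 5 of 6 mice, with a difference of 0.13 in mouse 1. Hdac4, a deacetylase that rises on denervation, fell by 0.59 in 6 of 6 mice (adjusted p = 0.000772, limma). Smaller differences were those of Tcf3, an E protein partner (-0.40), Myf6 (-0.32) and Hdac5 (0.34). Each of these no longer passed without any 1 of 3 or 4 of the FOXO1dn mice. Of the other factors of the myogenin family, Myod1 differed by -0.45 (adjusted p = 0.171, limma) and Myf5 by -0.05.

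The denervation markers outside the receptor went both ways in FOXO1dn-labelled legs: 6 of 11 fell and 2 rose, while 3 did not pass. The shares over all genes were 10.9% and 6.02%. Cdkn1a (the cell cycle inhibitor p21), Runx1 (a transcription factor induced by denervation), Kcnn3 (the SK3 potassium channel of denervated fibres) and Nes (nestin, found at the synapse) fell in 6 of 6 mice, with differences of -1.86, -1.65, -1.55 and -1.02 (adjusted p = 2.32e-06, 2.43e-05, 3.31e-05 and 0.00126, limma). Ncam1 (-0.80) and Prkar1a (-0.32) also fell. Ncam1 no longer passed without mouse 2 or 3, and Prkar1a without mouse 3 or with quantile normalization. Trim63 (0.79, adjusted p = 0.00517, limma) and Fbxo32 (0.65, adjusted p = 0.00313, limma), the ubiquitin ligases MuRF1 and atrogin-1, rose in 6 of 6 mice. The receptor genes Chrng, Chrnd and Chrna1 and the ligase genes, all known to be induced in denervated muscle, thus differed in opposite directions in the FOXO1 cohort.

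Of the 16 measured genes of the MuSK pathway outside the 10, 3 fell and 2 rose in FOXO1dn-labelled legs. Over all genes 10.9% fell and 6.02% rose. Cttn, the actin regulator cortactin, had 4.77, 5.10 and 5.14 in FOXO1dn-labelled legs and 5.58, 5.85 and 6.31 in control-labelled legs (difference -0.87, adjusted p = 6.68e-05, limma). Macf1, a linker of microtubules and actin, fell by 0.48 (adjusted p = 0.00549, limma). Fyn (-0.46), Dvl1 (0.25) and Camk2b (0.31) passed, and no longer did when 1 of several mice was left out, for Camk2b mouse 4 alone. Agrin's gene Agrn was among the 11 that did not pass.

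Of the 15 genes of the synaptic basal lamina and the dystroglycan complex, Dmd (dystrophin, 0.55, adjusted p = 0.000435, limma) and Lama2 (the laminin alpha2 chain, 0.49, adjusted p = 0.00155, limma) rose in FOXO1dn-labelled legs. Dag1 (dystroglycan, -0.43, adjusted p = 0.00441, limma) and Itgb1 (-0.32, adjusted p = 0.0157, limma) fell. Over all genes 6.02% rose and 10.9% fell. Itgb1 no longer passed without mouse 2, 3 or 4. Of 9 genes for glycosylation and receptor assembly, Ubxn2a rose (0.59, adjusted p = 0.00205, limma) and 8 did not pass. In the same legs none of 9 genes of neuregulin signaling and the ETS factors passed in limma (differences -0.19 to 0.13, 0 of them at an unadjusted p under 0.05). None of 12 genes for nerve nicotinic subunits and Bche passed there either (-0.15 to 0.15, 0 at an unadjusted p under 0.05). In FOXO3dn-labelled legs these 12 differed by -0.42 to 0.19, and 0 passed in limma. There 2 were lower and 1 higher at an unadjusted p under 0.05, beside 8.27% and 6.51% of all genes.

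**Figure D4:**
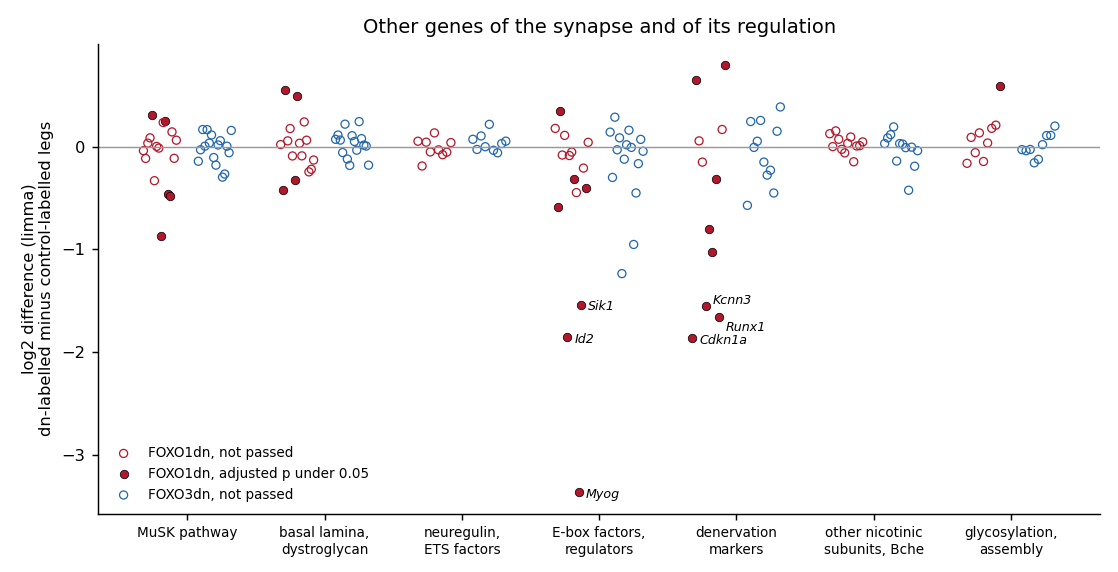
Log2 difference from limma, dn-labelled minus control-labelled legs (vertical axis), for the 87 other genes in 7 lists, FOXO1dn in red and FOXO3dn in blue. Each point is a gene and filled points have an adjusted p under 0.05, which 25 genes reached with FOXO1dn and 0 with FOXO3dn. Named genes have a difference under -1.4, and Myog at -3.36 is the lowest.

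Markers of other cells differed between the same legs. All 10 macrophage and monocyte genes (Adgre1, C1qa, C1qb, Cd14, Cd68, Csf1r, Itgam, Ly6c2, Lyz2 and Mrc1) were lower in FOXO1dn-labelled legs, where their mean level was 6.27 to 7.74, and it was 7.86 to 9.13 in control-labelled legs. The study states the opposite direction for immune cell markers, Cd68 and Itgam among them, with both constructs. Which leg carried a construct was not checked on the arrays. Cd14 no longer passed when any of several single mice was left out, and the other 9 passed under all alternatives. In the FOXO3 cohort the mean was 5.97 to 7.45 in FOXO3dn-labelled legs and 6.97 to 8.16 in control-labelled legs, and 0 of 10 passed in limma (4 at an unadjusted p under 0.05). In FOXO1dn mouse 1 the macrophage mean differed by -0.12 and Chrng by -4.21, while in mouse 2 they differed by -2.32 and -5.38. In FOXO3dn mouse 2 they differed by -1.97 and -1.94, the largest of that cohort for both. FOXO1dn mouse 1 had the smallest difference of its cohort in both.

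Of 5 satellite cell genes, Vcam1, Sdc4 and Itga7 fell in FOXO1dn-labelled legs. Sdc4 no longer passed without mouse 2, 3 or 4, and Itga7 without mouse 2 or 3. Sdc4 also fell in FOXO3dn-labelled legs (-0.98, adjusted p = 0.047, limma). There it no longer passed without FOXO3dn mouse 2 (adjusted p = 0.247, limma) or under many other alternatives. The defining gene Pax7 differed by -0.05 at levels of 3.37 to 3.75 in FOXO1dn-labelled legs and 3.34 to 3.97 in control-labelled legs. Of 5 genes of immature fibres, Myh3, the embryonic myosin, fell by 1.98, with 4.78, 5.31 and 6.45 in FOXO1dn-labelled legs and 6.13, 7.36 and 8.62 in control-labelled legs, Ncam1 fell as above, and 3 did not pass. None of 6 Schwann cell genes passed with either construct in limma, 0 of them at an unadjusted p under 0.05. Endothelial genes (4 of 5) and myofibre genes (4 of 8) rose in FOXO1dn-labelled legs, the myofibre genes by at most 0.38 log2 units. Over all genes 6.02% rose and 10.9% fell in those legs. Each of these 4 myofibre genes no longer passed under some alternatives. Of the 4 endothelial genes, Kdr no longer passed without FOXO1dn mouse 2 (adjusted p = 0.0769, limma). None of 5 fibroblast genes passed in FOXO1dn-labelled legs in limma (1 at an unadjusted p under 0.05). In FOXO3dn-labelled legs 1 rose, Lum (0.50, adjusted p = 0.0335, limma). Lum also no longer passed without FOXO3dn mouse 2 (adjusted p = 0.206, limma) or under some other alternatives. The part of any cell type in the receptor gene differences was not tested.

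**Figure D5:**
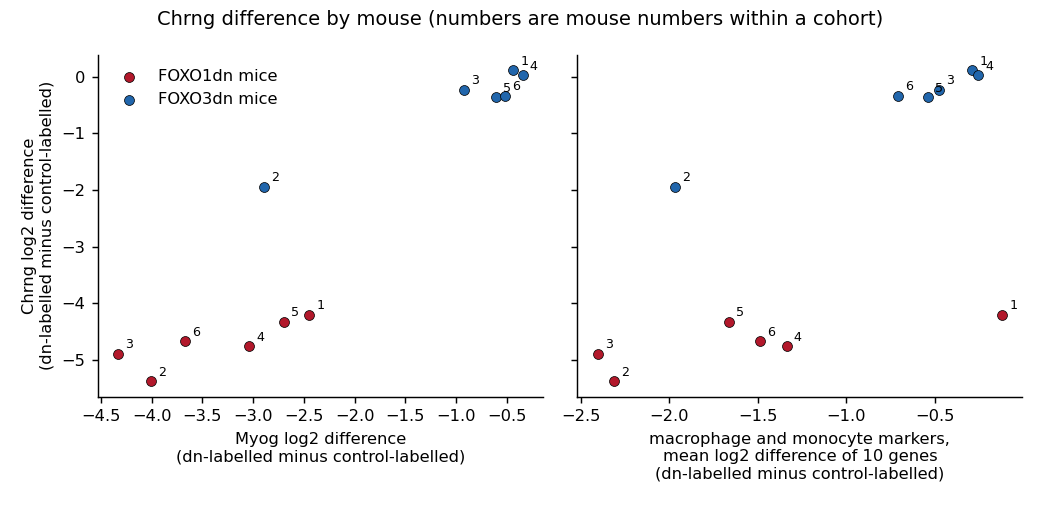
Within-mouse log2 difference of Chrng (vertical axes) against that of Myog (left) and against the mean difference of 10 macrophage and monocyte genes (right), dn-labelled minus control-labelled, for 6 FOXO1dn mice (red) and 6 FOXO3dn mice (blue), numbered within each cohort. FOXO1dn mouse 1 has a Chrng difference of -4.21 with a macrophage difference of -0.12, and FOXO3dn mouse 2 stands apart from the other FOXO3dn mice on all axes.

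Over the 24 arrays the levels of Chrng, Chrnd and Chrna1 went together, with a Pearson r of 0.98 for Chrng and Chrnd and 0.96 for Chrng and Chrna1. After the 4 group means were subtracted the values were 0.92 and 0.91, so the 3 genes also varied together among legs of a group. Chrng and Musk had 0.90 over all arrays and 0.31 within groups, and Chrng and Chrne had -0.41 and -0.46. The arrays share cohorts and mice, and the values are descriptions over 24 arrays.

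Outside the 10 genes, the 8 most like Chrng over the 24 arrays were Tubb2a (a beta tubulin, r = 0.97), Spg21 (maspardin, 0.97), Myog (0.96), Mtch1 (0.95), Cdkn1a (0.94), Sik1 (0.94), Cyb5r3 (a cytochrome b5 reductase, 0.94) and Orm2 (an acute-phase glycoprotein, 0.94). Within groups these values were 0.52 (Mtch1) to 0.90 (Cdkn1a and Cyb5r3). Tubb2a differed by -4.87 with FOXO1dn and by -1.41 with FOXO3dn, and Orm2 by -3.05 and -0.84. The 8 most like Chrne were Gys1 (muscle glycogen synthase, r = 0.88), Pgam2 (muscle phosphoglycerate mutase, 0.86), Casq1 (calsequestrin of the sarcoplasmic reticulum, 0.84), Trp53inp2 (0.84), Klhl31 (0.83), Mybpc1 (a myosin-binding protein, 0.83), Stac3 (a part of excitation-contraction coupling, 0.82) and Mfn2 (mitofusin 2, 0.82), with 0.76 to 0.84 within groups. Their differences were 0.24 to 0.64 with FOXO1dn and 0.23 to 0.50 with FOXO3dn. Of the genes most like Chrng, Myog, Cdkn1a and Sik1 belong to the lists above, and of those most like Chrne none does.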

How the data were processed

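Each leg gave 1 array of total RNA from tibialis anterior, with 6 arrays in each of 4 groups and 0 left unmapped. The deposited values are log2 intensities, which the authors computed by robust multi-array average (RMA) with the oligo package and left unfiltered. No raw intensities, depths or detection calls were used, and the number of arrays limits the precision. Of 41345 probe sets, 23521 carry 1 gene symbol in the platform annotation, 1820 carry several and 16004 none. After removal of 2017 probe sets for microRNAs, pseudogenes and predicted genes, the brightest probe set per symbol gave 20261 genes. Arrays correlated with each other at 0.936 to 0.991 (Pearson).

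Differences are dn-labelled minus control-labelled. They and their SE come from limma 3.58.1 (lmFit over 4 groups with duplicateCorrelation on the mouse, eBayes) in R 4.3.3. Benjamini-Hochberg adjustment was made over all genes. A gene passed at an adjusted p under 0.05 and was called when its log2 difference was also over 1 in size, the thresholds of the study. Legs were paired by the mouse number in the labels. As a check, deviations of both legs from their group means correlated across genes at -0.14, 0.03, 0.01, 0.11, 0.20 and 0.18 in mice 1 to 6 of the FOXO1 cohort and 0.02, -0.37, 0.21, 0.22, 0.27 and 0.29 in those of the FOXO3 cohort, and the consensus correlation was 0.06. Nothing in the labels gives an array batch, and the cohorts hold 1 construct each.

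The 10 genes and all lists, those of cell type markers included, were chosen with earlier results of these data known. The p-values printed for listed genes are therefore descriptions. All 10 are named, and of the other lists at most 8 genes that passed with either construct, together with the 8 genes most correlated with Chrng and with Chrne. Myod1, Myf5, Pax7 and Agrn are named as well, chosen after their values were seen. Colq lies on a probe set with several symbols and was not analysed here, and some other genes of the lists are not reported here. Alternatives left out the block or each mouse, made the mouse a fixed effect, used each cohort's own 12 arrays, a variance trend, quantile normalization, the mean of probe sets, all symbols, or genes with a mean log2 of 4 or more. Promoter windows are those of RefSeq on GRCm38.p6.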

Additional observations from a re-analysis of the deposited data

Results flagged for a closer look

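In 5 of 60 sets of 6 values of the 10 genes, the lowest or highest value lay farther from its neighbour than Dixon's limit for 6 values allows, and chance flags about 1 set in 20. FOXO3dn-labelled leg 6 had a Chrna1 log2 intensity of 7.30 and a Chrnb1 intensity of 7.54, each above the other 5 legs of its group. FOXO3dn mouse 2 stood apart in its within-mouse differences, with -1.94 for Chrng (next -0.36), -0.44 for Chrnb1 (next 0.01) and 1.54 for Chrne (next 0.53).

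The within-mouse differences of the constructs differed, by the limma contrast of FOXO1dn minus FOXO3dn, by -4.25 for Chrng, -3.02 for Chrnd, -1.61 for Chrna1, -0.87 for Musk, -2.41 for Myog, -1.81 for Kcnn3 and -1.09 for Sik1. Myf6, the muscle regulatory factor MRF4, was lower in all 6 FOXO1dn mice and higher in all 6 FOXO3dn mice, with a difference of -0.48 that did not pass the contrast (adjusted p = 0.17, limma). The constructs lie in separate cohorts, so these differences cannot be told apart from a difference between cohorts. Chrng and Chrnd also had less room to fall in the FOXO3 cohort, where control-labelled legs were already low.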

How the results depend on the processing

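Chrng, Chrnd and Chrna1 were called with FOXO1dn under all 20 alternatives, many of which leave the estimated difference itself as it was. Differences near 0 changed sign when a mouse was left out: with FOXO1dn, Ache ran over -0.06 to 0.14 and Dok7 over -0.09 to 0.08, and with FOXO3dn, Rapsn over -0.15 to 0.13, Chrnb1 over -0.04 to 0.10 and Musk over -0.04 to 0.02. The number of all genes called with FOXO3dn, 17, was less stable. It was 9 with no replicate block, 11 with a fixed mouse effect, 4 when fitted to that cohort's 12 arrays, 9 with a variance trend and robust fit and 70 among genes with a mean log2 of 4 or more. Leaving out each mouse gave 6 to 33, with 6 without FOXO3dn mouse 2 and 33 without FOXO1dn mouse 1. Among genes with a mean of 4 or more, 1 of the 10 genes was called with FOXO3dn (Chrnd) and 1 other synapse gene passed (Id2). The causes were not tested. Leaving out the block or making it fixed moved no other count of calls by over 1.5 times. Dim levels near the array medians, as for Lrp4, Ache and Chrng in FOXO1dn-labelled legs, carry no detection call.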
